A study of Rattus norvegicus with 12 samples.

Results

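Rat liver at the cirrhosis stage of diethylnitrosamine (DEN) carcinogenesis was compared with liver at the earlier hepatitis stage. The members are 6 of the 12 arrays of the series, the 3 labelled as the cirrhosis stage and the 3 labelled as the hepatitis stage, and every one of the 14213 genes that the probe sets of these arrays name. RNA was read on single-colour Affymetrix Rat 230 2.0 arrays, which report the brightness (intensity) of a set of short probes per transcript. The other 6 arrays, 3 of control liver and 3 of hepatocellular carcinoma (HCC), are given as levels beside single genes and enter only alternative fits. Both groups were liver of male adult Sprague-Dawley rats on a semipurified basal diet that had been given intraperitoneal DEN at 70 mg/kg once weekly, in a course of 10 weeks. Hepatitis livers were taken at the close of week 5 and cirrhosis livers at week 13 or 14, while control rats had been injected with distilled water. HCC samples came from rats labelled with the same DEN dose and course and were taken at week 23 or 24. The labels count these weeks after DEN treatment without saying whether from its first or last dose, so the number of doses a hepatitis rat had received, and its time since the last one, are unknown here. Stage, age and time since dosing cannot be told apart in this design. Whether each array holds RNA of its own rat is not said in the labels, and p-values therefore cover only the variation among these samples, part of which may be technical.

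DEN is turned by cytochrome P450 enzymes of the hepatocyte into a reactive species that alkylates DNA. Damaged DNA stabilises p53, a transcription factor that switches on genes of cell cycle arrest, repair and cell death, while electrophiles release the factor NRF2 from its inhibitor Keap1 and so raise detoxifying enzymes. Repeated injury leads to inflammation, scarring by stellate cells and regeneration, and hepatocytes in injured liver often lower the lipid, drug and plasma protein genes of the mature cell.

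The 12 arrays had median intensities of 28.69 to 30.94, and 33.85% to 35.75% of values lay under 16. Across genes, Pearson's r was 0.9961 to 0.9968 among the cirrhosis arrays and 0.9842 to 0.9874 among the hepatitis arrays, with 0.9754 to 0.9884 between the groups. Hepatocyte markers were at the top of the range on all 6 arrays, with Alb (albumin) at 14013 to 14857, so both groups were liver tissue by these genes. Hepatitis replicate 2 lay nearest to the cirrhosis arrays on the first principal component, at -6.25 against -22.92 and -21.81 for hepatitis replicates 1 and 3 and 15.72 to 19.12 for the cirrhosis arrays. Hepatitis replicate 1 carried the highest mean levels of biliary and cell cycle genes among the 6, and the part of these single arrays in the differences was tested only by leaving each out. The gap between the 3′ and 5′ ends of the Gapdh control transcript, a sign of RNA quality, was 0.52 ± 0.16 (log2, SD, n = 3) at the hepatitis stage and 0.49 ± 0.07 (SD, n = 3) at the cirrhosis stage. The same gap was 0.93 ± 0.08 in control liver and 2.3 ± 0.90 in HCC (SD, n = 3 each). HCC levels below thus come from RNA of a different quality by this sign, and its part in them was not tested. In whole tissue, fewer cells of a type and less RNA per cell cannot be told apart.

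Of the 14213 genes, 457 (3.22%) differed between the stages in limma's moderated test at an adjusted p under 0.05, and such genes are called here. At the cirrhosis stage 208 (1.46%) were higher and 249 (1.75%) lower. Differences are on the scale of log2(intensity + 16), where 1 is a doubling, given with their standard error, cirrhosis minus hepatitis. The added 16 makes the fold of a dim gene look smaller than it was. A 2-fold difference was reached by 95 called genes (0.668%), 44 higher (0.31%) and 51 lower (0.359%). An unadjusted p under 0.05 was found for 2916 genes (20.5%), and list counts at that level below are to be read beside this share. The 3 arrays of one stage all lay above the 3 of the other for 3807 genes (26.8%), including all 457 called ones. In 1865 of the 3807 the cirrhosis arrays were the higher and in 1942 the lower. Remarks below that the stages of a called gene do not overlap therefore describe its values and add no support to the call. The median difference over all genes was 0.00. With 3.22% of all genes called, a gene list would hold few calls, so a list without a call says little about its genes. The calls rested on all 3 cirrhosis arrays: leaving out cirrhosis replicate 1, 2 or 3 left 14, 2 or 11 calls, while leaving out hepatitis replicate 1, 2 or 3 left 477, 926 or 455. With a spread shared with the 3 control arrays 834 genes were called, and with all 12 arrays 136. Without cirrhosis replicate 1, 2 or 3 no list kept more than 1 call in either direction. List counts also moved with the hepatitis array left out and with the settings. They are given below without hepatitis replicate 1, 2 or 3, in that order, and as a range over 8 other fits (the 9 arrays without HCC, all 12 arrays, an added constant of 1 or 64, the dimmest 30% of genes left out, the mean of a gene's probe sets, quantile normalization, and trend and robust eBayes). A gene stands for its brightest probe set. With each probe set tested alone, 13 of the 95 called genes named in the text had none called: Fasn, Pln, Eci1, Slc25a20, Abcc2, Otc, Cebpa, Adamts5, Tyrobp, Oas1a, Acaa2, Isg15 and Zmat3, at adjusted p from 0.0508 to 0.0580 for the probe set used. An exact permutation test of 3 arrays against 3 cannot give a two-sided p under 0.1, so single genes are judged by limma's fit across all genes.

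**Figure D1:**
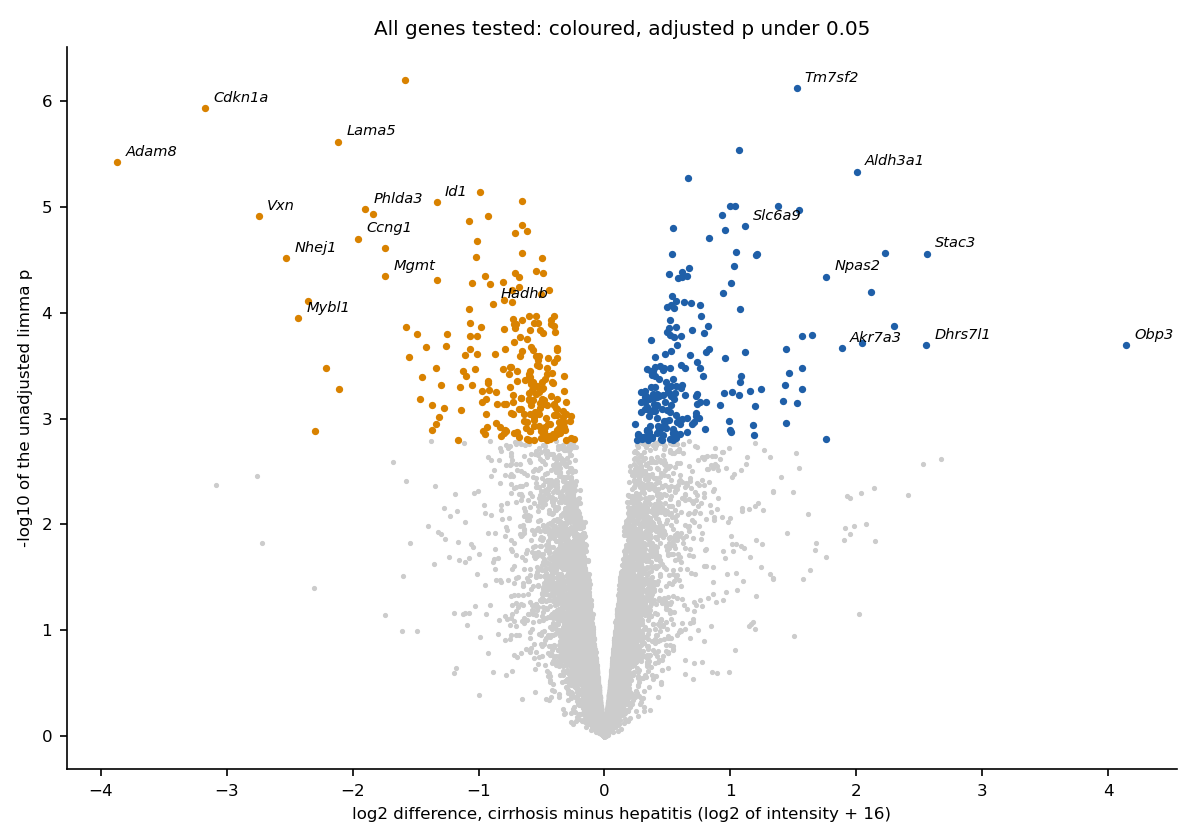
Each point is 1 of 14213 genes, placed by its log2 difference (cirrhosis minus hepatitis, horizontal) and by -log10 of limma's unadjusted p (vertical). Blue points are the 208 genes called higher and orange points the 249 called lower at the cirrhosis stage; Cdkn1a and Adam8 stand at the far left and Obp3 at the far right.

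Every called target of p53 was lower at the cirrhosis stage. Of 22 measured targets 9 were called lower and 0 higher, with a median difference of -0.60. In 13 the cirrhosis arrays all lay below the hepatitis arrays, as they did in 1942 of all 14213 genes. Cdkn1a, the cyclin-dependent kinase inhibitor that carries out p53 arrest, read 2011, 1669 and 2595 on hepatitis arrays 1, 2 and 3 and 244, 197 and 206 on cirrhosis arrays 1, 2 and 3. The lowest hepatitis array was thus far above the highest cirrhosis array, while control liver read 177 ± 78.8 (SD, n = 3). The difference was -3.17 ± 0.17 (adjusted p = 0.00558).

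Ccng1, the p53-induced cyclin G, read 1561, 959.8 and 1237 at the hepatitis stage and 314, 297 and 302 at the cirrhosis stage. Its cirrhosis values lay close together and below every hepatitis value, at a difference of -1.96 ± 0.17 (adjusted p = 0.00981), yet above the control liver's 168 ± 21.5. Phlda3, which restrains the kinase Akt, fell from 521, 339.8 and 404 to 102, 98.8 and 97.9, by 1.90 ± 0.15 (adjusted p = 0.00874). Mdm2, the ubiquitin ligase that degrades p53, went from 585, 358 and 531 to 184, 173 and 156, a difference of -1.41 ± 0.18 (adjusted p = 0.0230). The death receptor gene Fas had 186, 218 and 218 against 94.5, 94.5 and 81.4, a difference of -1.07 ± 0.09 (adjusted p = 0.00917). None of these genes had overlapping groups. The other 4 called targets were the kinase gene Plk2 (-1.07), the nuclease gene Aen (-1.05), Zmat3, which encodes an RNA-binding zinc finger protein (-0.80), and the stress protein gene Sesn2 (-0.67). Gtse1, a regulator of p53 in mitosis outside the list chosen after its values were seen, read 151, 123 and 202 and then 56.6, 58.7 and 52.6 (-1.26 ± 0.16, adjusted p = 0.0226). Other well-known targets were not past the threshold, with Gdf15, a secreted stress hormone, at -0.82 (adjusted p = 0.0876) and Bbc3, the cell death gene Puma, at -0.25 (adjusted p = 0.216). Without 1 of the hepatitis arrays 8 to 10 targets were called lower, over the other fits 7 to 10, and without cirrhosis replicate 1, 2 or 3 there were 1, 0 and 1.

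DNA repair genes had calls in both directions. Of 21 genes of alkylation and strand break repair 1 was called lower and 1 higher, beside 1.75% and 1.46% of all genes, with a median of -0.10. Mgmt, the protein that takes alkyl groups off guanine, read 848, 645 and 547 on the hepatitis arrays and 183, 217 and 169 on the cirrhosis arrays. The groups were far apart, at -1.74 ± 0.17 (adjusted p = 0.0121), and control liver read 117 ± 6.51 (SD, n = 3). The repair list had 1, 1 and 1 called higher and 1, 2 and 1 lower without hepatitis replicate 1, 2 or 3, and 0 to 1 higher and 1 to 2 lower over the other fits. Xpc, which recognises distorted DNA for nucleotide excision repair, was the called rise, from 184, 189 and 197 to 236, 260.1 and 267, by 0.39 ± 0.06 (adjusted p = 0.0354). Nhej1, a factor of end joining outside the list, was among the 12 largest falls: its hepatitis arrays read 243, 137 and 261 and its cirrhosis arrays 27.1, 20.8 and 20.1, near the control level of 18.7 ± 2.41. That difference was -2.53 ± 0.23 (adjusted p = 0.0106). Lig4, the ligase of the same pathway, chosen after its values were seen, read 148, 121 and 157 against 65.2, 64.6 and 65.9 (-0.95 ± 0.09, adjusted p = 0.0121).

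The largest fall of any called gene was that of Adam8, a membrane metalloprotease best known from leukocytes. It read 2524, 1439 and 1586 at the hepatitis stage and 139.8, 103 and 85.7 at the cirrhosis stage, against 20.7 ± 1.88 (SD, n = 3) in control liver and 66.9 ± 25.8 (SD, n = 3) in HCC. Every hepatitis array was above every cirrhosis array, and the cirrhosis arrays were still above the control mean. The difference was -3.87 ± 0.25 (adjusted p = 0.00874). Mybl1, a Myb-family transcription factor, had the same order of groups: 1022, 499.8 and 962 at hepatitis, 136, 154 and 113 at cirrhosis and 21.4 ± 6.67 (SD, n = 3) in control liver. Its difference was -2.43 ± 0.28 (adjusted p = 0.0187).

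Other large falls were those of genes in no list. Vxn (vexin) read 395, 380.3 and 630.1 and then 65.7, 55.97 and 43.4, a difference of -2.75 ± 0.22 (adjusted p = 0.00874). Ces2c, a carboxylesterase, read 2321, 1123 and 1621 and then 339.7, 297 and 278 (-2.35 ± 0.25, adjusted p = 0.0157). Both were more than the spread within either stage, with no overlap. Hapln3, a link protein of hyaluronan matrix, read 221, 80.4 and 137 and then 17.4, 14.95 and 18.3, the latter at the control level of 17.5 ± 1.01 (-2.21 ± 0.31, adjusted p = 0.0273). Lama5, a laminin chain of basement membrane, read 241, 203 and 267 and then 50.2, 36.1 and 40.4 (-2.12 ± 0.13, adjusted p = 0.00831). Hapln3 was uneven among the hepatitis arrays and Lama5 even. Pln, the inhibitor phospholamban of the calcium pump, was the most uneven, at 246, 64.9 and 99.4 against 14.8, 9.40 and 10.2 (-2.30 ± 0.41, adjusted p = 0.0465). Its cirrhosis values lie under the added 16, so this difference understates the fold.

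**Figure D2:**
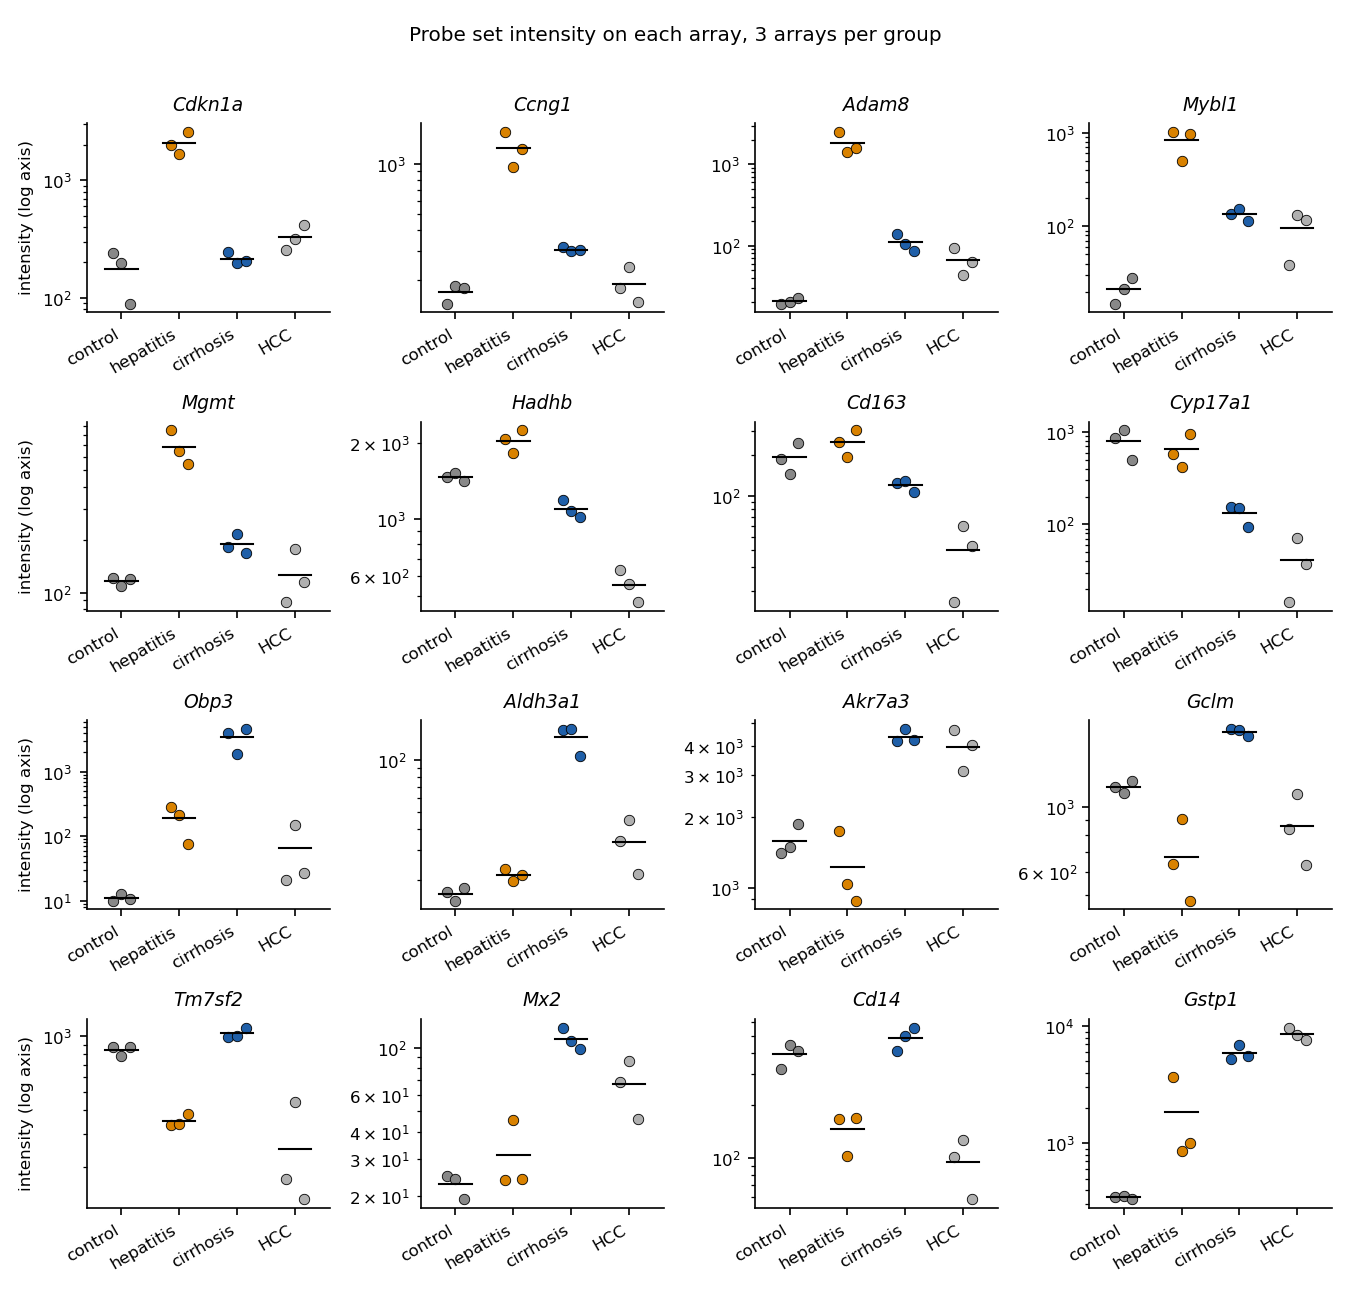
Each panel shows 1 gene, with its intensity on a logarithmic vertical axis and the 4 groups on the horizontal axis (grey, control and HCC; orange, hepatitis; blue, cirrhosis). Points are single arrays and bars are group means; the hepatitis and cirrhosis points do not overlap in any of the 16 panels, and Gstp1 alone among them was not past the threshold, with hepatitis replicate 1 at 3688 against 854 and 999.

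Genes driven by NRF2 rose more often than they fell. Of 27 measured genes 8 were called higher and 2 lower, with a median of 0.56, and 21 had a positive difference. Aldh3a1, an aldehyde dehydrogenase nearly silent in normal hepatocytes, read 23.4, 19.8 and 21.6 at hepatitis and 151, 152 and 106 at cirrhosis. The hepatitis arrays were near the control level of 16.8 ± 1.41 (SD, n = 3), and the difference was 2.01 ± 0.13 (adjusted p = 0.00874). Akr7a3, the reductase of aflatoxin aldehyde, read 1744, 1044 and 882 and then 4181, 4717 and 4244 (1.89 ± 0.24, adjusted p = 0.0230). Gclm, the modifier subunit of the enzyme that limits glutathione synthesis, read 639, 906 and 479 and then 1835, 1815 and 1737, a difference of 1.44 ± 0.21 (adjusted p = 0.0321). Its hepatitis values lay under the control mean of 1168 ± 57.1 and its cirrhosis values above it. Ugdh, which makes the sugar donor of glucuronidation, read 1052, 1178 and 872 and then 2381, 2455 and 2357 (1.21 ± 0.11, adjusted p = 0.0106), again with control liver in between at 1711 ± 139.5. The other called rises were the thioredoxin reductase gene Txnrd1 (0.76), the pentose phosphate enzyme gene Pgd (0.57), the glutathione reductase gene Gsr (0.52) and Keap1, the inhibitor of NRF2 itself (0.38).

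Members of the same list went the other way. Hmox1, which breaks down heme, read 628, 586 and 823 at hepatitis and 243, 251 and 278 at cirrhosis, so every cirrhosis array was lower, at -1.33 ± 0.13 (adjusted p = 0.0124). Aldh1a1, a retinaldehyde dehydrogenase, was the other called fall at -0.74. Nqo1, the quinone reductase often used as the reporter of NRF2, read 1074, 883 and 720.3 and then 1327, 1417 and 1257 (0.59 ± 0.14, adjusted p = 0.0854) and was not past the threshold. Nfe2l2, the gene of NRF2, had overlapping groups at 1654, 1393 and 1055 and 1192, 1281 and 1351 (-0.08 ± 0.16, adjusted p = 0.850). The NRF2 list had 12, 8 and 8 called higher and 1, 2 and 1 lower without hepatitis replicate 1, 2 or 3, and 4 to 11 higher and 0 to 2 lower over the other fits.

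NRF2 binds a short antioxidant response element, searched here as TGACNNNGC on both strands in the promoters of RefSeq's GRCr8 assembly, from 250 bases before to 50 after each gene's start. It was present in 4 of the 23 list members with a promoter entry (17.39%), against 12.17% of all 27457 promoters and 14.36% of the 11735 tested genes with an entry, so this core was common. Of the 6 called rises with an entry it was found in Gclm and Ugdh, both read on the opposite strand. These stretches are shown because they are the matches among the called genes, with the match in capitals. Gclm lies on the + strand at chr2:213031923-213032011 and Ugdh on the + strand at chr14:43202271-43202359.
Gclm: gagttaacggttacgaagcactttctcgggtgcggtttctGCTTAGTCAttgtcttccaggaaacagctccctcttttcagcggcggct
Ugdh: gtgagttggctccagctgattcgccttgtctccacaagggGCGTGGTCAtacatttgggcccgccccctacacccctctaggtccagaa
A match is a description of the letters, and binding was not measured.

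Glutathione transferases, which join glutathione to electrophiles, moved up in part. Of 19 measured 4 were called higher and 0 lower, at a median of 0.36. Gstt3, of the theta class, read 934, 747 and 542 and then 2109, 1573 and 2257 (1.42 ± 0.22, adjusted p = 0.0349). The microsomal Mgst2 read 886, 1226 and 1092 and then 2319, 2313 and 2147 (1.08 ± 0.12, adjusted p = 0.0165). Both were under the control means of 1352 ± 103 and 2009 ± 94.96 (SD, n = 3 each) on every hepatitis array and above them on every cirrhosis array. The mu class Gstm7 (0.73) and microsomal Mgst3 (0.54) were the other called rises. Gstp1, the pi class enzyme used to mark preneoplastic rat hepatocytes, read 3688, 854 and 999 and then 5276, 6919 and 5519, against 345 ± 12.1 in control liver and 8627 ± 1044 in HCC (both SD, n = 3). All cirrhosis arrays were above all hepatitis arrays, but hepatitis replicate 1 stood far above the other two, and the difference of 1.99 ± 0.55 was not past the threshold (adjusted p = 0.109). The transferases had 8, 5 and 4 called higher and 0, 1 and 0 lower without hepatitis replicate 1, 2 or 3, and 2 to 5 higher and 0 to 1 lower over the other fits.

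Lipid synthesis genes had mostly positive differences, of which few were called. All 19 genes of cholesterol synthesis and uptake had a positive difference (median 0.98) and in 18 the groups were apart, yet 1 was called. Of 19 fatty acid synthesis genes 16 were positive (median 1.12), 15 had the groups apart and 1 was called. In both lists the cirrhosis arrays were the higher wherever the groups were apart, as in 1865 of all 14213 genes. The hepatitis arrays differed among themselves. The mean level of the cholesterol list (log2) was 7.77, 8.91 and 8.003 on hepatitis arrays 1, 2 and 3, and 9.25, 9.26 and 9.24 on the cirrhosis arrays, so hepatitis replicate 2 lay most of the way to the cirrhosis level. The cholesterol list had 1, 16 and 1 called higher and 0 lower without hepatitis replicate 1, 2 or 3, and 0 to 3 higher and 0 lower over the other fits. The fatty acid synthesis list had 3, 8 and 0 called higher and 0 lower without hepatitis replicate 1, 2 or 3, and 0 to 11 higher and 0 lower over the other fits.

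The called cholesterol gene was Tm7sf2, a sterol reductase of the late pathway, which read 333, 336 and 380.2 at hepatitis and 993, 1005 and 1111 at cirrhosis, against 844 ± 52.5 (SD, n = 3) in control liver. It was even on all hepatitis arrays, and the difference of 1.53 ± 0.08 (adjusted p = 0.00542) was called in 5 of the 6 fits that leave out 1 array. Idi1, the isomerase of isoprenoid units, shows the pattern of the list: 164, 819 and 214 and then 1216, 1249.9 and 1269 (1.95 ± 0.56, adjusted p = 0.118). Sqle, the squalene epoxidase, read 53.5, 160.4 and 59.8 and then 248, 276 and 256 (1.50 ± 0.35, adjusted p = 0.0774). In both, hepatitis replicate 2 was the high array of its group but still under every cirrhosis array. Fasn, the fatty acid synthase, was called at the edge of the threshold, with 207, 435 and 177 against 759, 1064 and 894 (1.76 ± 0.33, adjusted p = 0.0496), and its control level was 1319.9 ± 195 (SD, n = 3). Scd, the stearoyl-CoA desaturase, had the largest difference of the list, 446, 346 and 157 against 946, 2801 and 2766, at 2.68 ± 0.54 (adjusted p = 0.0579), with both stages uneven. Srebf2, the factor that drives cholesterol genes, read 114, 188 and 126 and then 204, 214 and 221 (0.56 ± 0.17, adjusted p = 0.133), and Srebf1, its counterpart for fatty acid genes, 337, 750.3 and 536 and then 851, 915 and 936 (0.79 ± 0.27, adjusted p = 0.169). Neither passed, and hepatitis replicate 2 was again the highest hepatitis array of each. Idi1, Sqle and Scd were chosen after their values were seen, as was Insig2, which retains the sterol sensor in the endoplasmic reticulum. Insig2 read 768, 670.3 and 769 and then 1369, 1584 and 1655, called at 1.04 ± 0.09 (adjusted p = 0.0106).

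Fatty acid oxidation genes had calls in 1 direction, downwards, on the 6 arrays. Of 29 genes 6 were called lower and 0 higher, and the median was -0.50. The cirrhosis arrays were all below the hepatitis arrays in 16, beside 1942 of all 14213 genes, and all above them in 2. Hadhb, a subunit of the mitochondrial trifunctional protein, read 2067, 1820.2 and 2245 and then 1189, 1079 and 1018 (-0.89 ± 0.10, adjusted p = 0.0160). Eci1, an enoyl-CoA isomerase, read 3319, 2084 and 3244 and then 1414, 1047 and 916 (-1.34 ± 0.23, adjusted p = 0.0440). In both the control level, 1474 ± 55.6 for Hadhb and 1012 ± 57.97 for Eci1, was below every hepatitis array. Cyp4a1, the omega hydroxylase that serves as a marker of PPAR alpha activity, read 3357, 2164 and 3042 and then 1495, 1209 and 1129 (-1.14 ± 0.19, adjusted p = 0.0374). The carnitine carrier gene Slc25a20 (-0.68), the long-chain dehydrogenase gene Acadl (-0.58) and the thiolase gene Acaa2 (-0.49) were the other called falls. Ech1, a dienoyl-CoA isomerase outside the list chosen after its values were seen, read 1699, 1814 and 2709 and then 927, 820.0 and 718 and was called at -1.30 ± 0.19 (adjusted p = 0.0321). Acot1, an acyl-CoA thioesterase, had the largest negative difference of the list but was uneven, at 359, 22.96 and 234 against 9.08, 6.85 and 6.25 (-2.72 ± 0.81, adjusted p = 0.130). Among members not called, Acadm, the medium-chain dehydrogenase, had overlapping groups (0.07 ± 0.08, adjusted p = 0.730). Fatty acid oxidation had 1, 0 and 0 called higher and 2, 13 and 2 lower without hepatitis replicate 1, 2 or 3, and 0 higher and 2 to 10 lower over the other fits, so 1 call without hepatitis replicate 1 ran against the rest.

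**Figure D3:**
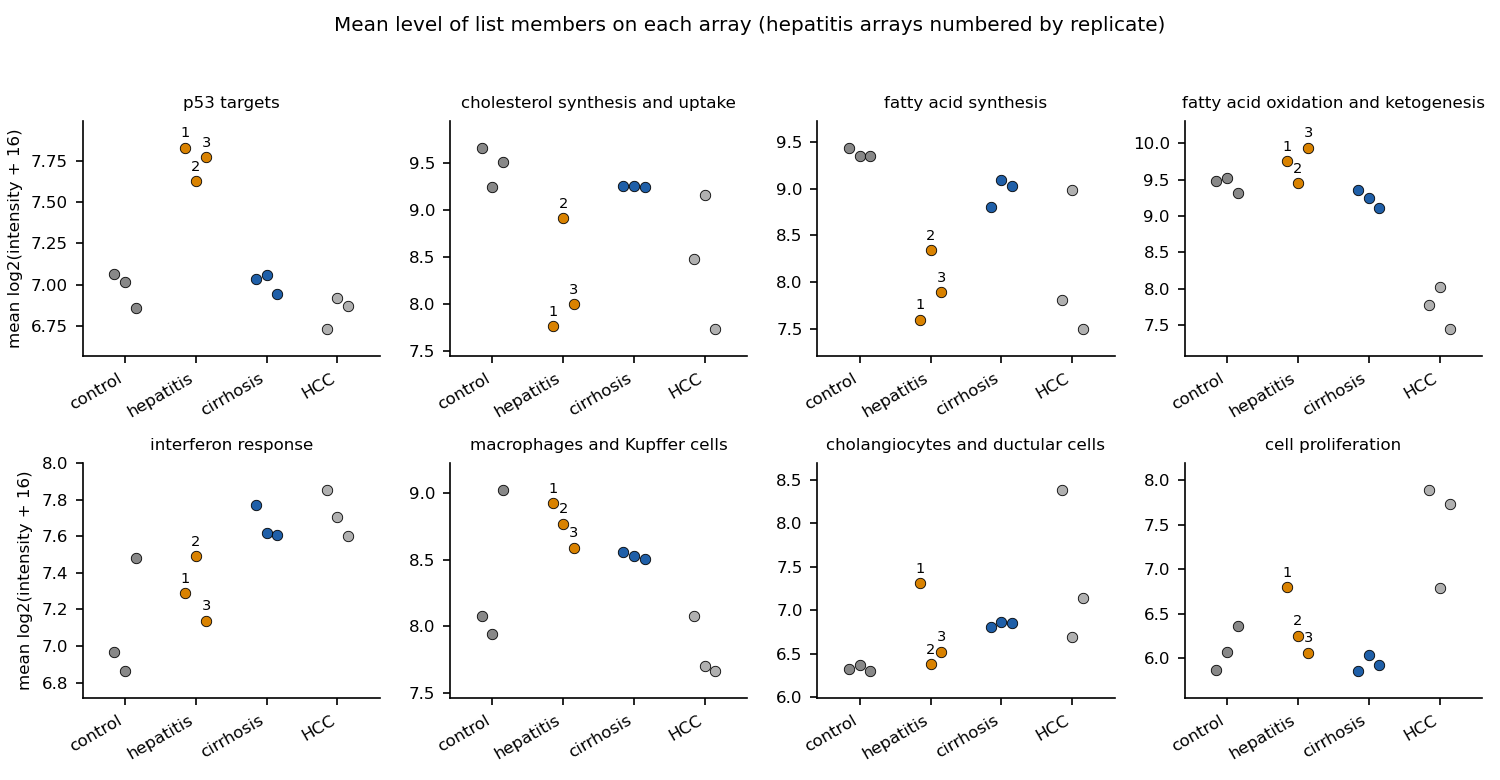
Each panel shows the mean of log2(intensity + 16) over the measured members of 1 gene list on each of the 12 arrays (grey, control and HCC; orange, hepatitis, numbered by replicate; blue, cirrhosis). Hepatitis replicate 2 was nearest to the cirrhosis arrays in cholesterol synthesis (7.77, 8.91 and 8.003 on hepatitis arrays 1 to 3), and hepatitis replicate 1 was highest in biliary genes (7.31, 6.38 and 6.52) and cell proliferation (6.80, 6.25 and 6.06).

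Liver genes that differ between male and female rats, through the pulsatile or steady pattern of growth hormone, included the largest rise of all. Obp3, a lipocalin of the urinary protein family that male rat liver secretes, read 288, 217 and 75.4 at hepatitis and 4003, 1917 and 4611 at cirrhosis. All cirrhosis arrays were far above the hepatitis arrays, at 4.15 ± 0.53 (adjusted p = 0.0226), while control liver read 11.02 ± 1.37 and HCC 65.3 ± 71.97 (both SD, n = 3). Mup5, a close relative, read 102, 165 and 77.02 and then 367, 297 and 379 (1.53 ± 0.25, adjusted p = 0.0354), and the sequence likeness within this family means that probes may read more than 1 member. Cyp2c11, the main P450 of male rat liver, read 883, 1475 and 313 and then 4511, 3907 and 4795, with no overlap but with unequal hepatitis arrays, and was not past the threshold (2.53 ± 0.52, adjusted p = 0.0602). Of 11 male-biased genes 2 were called higher and 1 lower (median 0.53). The called fall was Bcl6, a transcriptional repressor, with 199, 262 and 149 against 63.97, 90.03 and 66.5 (-1.27 ± 0.21, adjusted p = 0.0371), which was not past the threshold on the 9 arrays without HCC (adjusted p = 0.184).

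Of 11 female-biased genes 2 were called lower and 0 higher (median -0.24). Differences ran from -2.11 to 2.08, 7 negative and 4 positive, with 4 genes at least 2-fold lower and 1 at least 2-fold higher. Cyp17a1, a steroid hydroxylase, read 575, 422 and 952 and then 154, 150.2 and 93.8 (-2.11 ± 0.32, adjusted p = 0.0324), and here the hepatitis arrays spanned the control level of 798 ± 277 (SD, n = 3). Trim24, a nuclear receptor cofactor, read 218, 129.6 and 187 and then 72.7, 72.3 and 65.3 (-1.15 ± 0.17, adjusted p = 0.0322). Both groups of each gene were apart. Prlr, the prolactin receptor, read 364, 278 and 597 and then 163, 216 and 129 (-1.17 ± 0.30, adjusted p = 0.0928) and Cux2, a transcription factor of female liver, 39.7, 25.3 and 64.3 and then 16.2, 15.7 and 11.9 (-0.90 ± 0.23, adjusted p = 0.0963); both were apart and not past the threshold. Cyp2c12, the P450 most typical of female rat liver, overlapped between the stages at 4811, 2360 and 2122 and 3444.5, 3570 and 3111 (0.22 ± 0.30, adjusted p = 0.759). Control liver read 4563 ± 519 (SD, n = 3). This gene was thus bright in rats described as male, the reason for which was not tested. In the list of the growth hormone and Igf1 axis, Socs2, which shuts off growth hormone signalling, was the single call of 15, from 19.7, 17.5 and 16.04 to 48.3, 42.7 and 40.8 (0.83 ± 0.07, adjusted p = 0.00981). The list was mixed, with 9 positive and 6 negative differences from -1.545 to 0.83 (median 0.08). At least 2-fold lower was 1 gene, and 0 were at least 2-fold higher. The receptor gene Ghr (0.77, adjusted p = 0.0856) and the hormone gene Igf1 (0.36, adjusted p = 0.0673) did not pass, although another probe set of Igf1, tested alone, was called at 0.43 (adjusted p = 0.0234), with 2654, 2836 and 2587 against 3564, 3627 and 3694. The male-biased list had 2, 5 and 3 called higher and 0, 1 and 1 lower without hepatitis replicate 1, 2 or 3, and 2 to 3 higher and 0 to 1 lower over the other fits. The female-biased list had 1, 0 and 1 called higher and 1, 4 and 1 lower without hepatitis replicate 1, 2 or 3, and 0 higher and 0 to 4 lower over the other fits. The growth hormone axis had 2, 4 and 1 called higher and 0, 1 and 0 lower without hepatitis replicate 1, 2 or 3, and 0 to 3 higher and 0 lower over the other fits.

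Other large rises had no shared list. Stac3, an adaptor of muscle calcium channels, read 38.5, 49.6 and 24.4 and then 383, 235 and 282 (2.56 ± 0.23, adjusted p = 0.0106). Dhrs7l1, a short-chain dehydrogenase, read 204, 271 and 121 and then 1212, 866 and 1605 (2.56 ± 0.33, adjusted p = 0.0226). Cyp4a8, a P450 of fatty acid hydroxylation, read 10.5, 28.5 and 38.6 and then 156, 177 and 215 (2.30 ± 0.27, adjusted p = 0.0193), opposite in direction to its relative Cyp4a1. None of these 3 had overlapping stages. Ddit4l, an inhibitor of mTOR signalling, read 59.1, 28.2 and 37.8 and then 235, 285 and 226 (2.23 ± 0.20, adjusted p = 0.0106). Pcp4, a calmodulin regulator known from neurons, read 28.7, 20.1 and 22.4 and then 164, 211 and 108 (2.12 ± 0.22, adjusted p = 0.0141). Hepatitis values of both were near the control means of 32.2 ± 9.97 and 16.9 ± 1.25 (SD, n = 3 each). Dnaaf1, an assembly factor of ciliary dynein, read 26.02, 20.1 and 17.6 and then 152, 193 and 86.9 (2.05 ± 0.26, adjusted p = 0.0218), and its HCC mean, over arrays that varied widely, was 587 ± 568 (SD, n = 3).

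Interferon-stimulated genes were called in 1 direction, upwards. Of 41 measured 7 were called higher and 0 lower, 35 had a positive difference and the median was 0.39. Mx2, an antiviral GTPase, read 23.8, 45.5 and 24.1 at hepatitis and 124, 107 and 98 at cirrhosis (1.44 ± 0.19, adjusted p = 0.0230). Usp18, which removes the ubiquitin-like Isg15, read 126, 213 and 145 and then 444, 354 and 391 (1.24 ± 0.19, adjusted p = 0.0324). Hepatitis replicate 2 was the highest hepatitis array in both, and no array of one stage overlapped the other. Oas1a, a sensor of double-stranded RNA, read 88.99, 142 and 111 and then 279.9, 221 and 217 (0.99 ± 0.17, adjusted p = 0.0430). Cxcl9, a chemokine for T cells, read 169.8, 225 and 177 and then 358, 345 and 330.3 (0.81 ± 0.11, adjusted p = 0.0236). Oasl, Isg15 and Bst2, antiviral genes of the same response, were the other calls, at 0.76, 0.65 and 0.47. The guanylate-binding protein gene Gbp4 went the other way but was uneven at 253, 109 and 44.8 against 46.6, 37.2 and 45.04 (-1.11 ± 0.51, adjusted p = 0.288). The interferon list had 3, 17 and 2 called higher and 0 lower without hepatitis replicate 1, 2 or 3, and 3 to 10 higher and 0 lower over the other fits. T and NK cells had 0, 1 and 0 called higher and 0 lower without hepatitis replicate 1, 2 or 3, and 0 higher and 0 lower over the other fits. T and NK cell markers had 0 of 27 called in limma, 3 at an unadjusted p under 0.05, beside 20.5% of all genes, and a median of -0.01. With 3.22% of all genes called, the lack of a call says little about these cells. The source of the interferon response was not tested.

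Interferon acts through a response element searched as GAAA, any 2 bases and GAAA again, on both strands of the same promoter windows. It was found in 21 of the 32 list members with a promoter entry (65.62%) in 3.77% of all 27457 promoters and in 2.99% of the tested genes with an entry. Of the 4 called rises with an entry it was in Oas1a and Bst2, each time as 2 overlapping matches, shown in capitals. Oas1a lies on the + strand at chr12:41330385-41330480 and Bst2 on the - strand at chr16:18255043-18255138. Both stretches are shown as the matches among the called genes, and binding was not measured.
Oas1a: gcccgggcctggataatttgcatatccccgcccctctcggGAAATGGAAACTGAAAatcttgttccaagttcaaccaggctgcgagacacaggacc
Bst2: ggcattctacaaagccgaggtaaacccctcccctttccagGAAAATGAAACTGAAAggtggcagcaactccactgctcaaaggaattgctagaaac
Of the 21 list members that hold the element 2 were called higher.

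Macrophage genes were mixed. Of 24 markers 5 were called lower and 1 higher (median -0.24). Cd163, the haptoglobin scavenger receptor of resident macrophages, read 248, 193 and 302 and then 123, 128 and 107 (-0.94 ± 0.16, adjusted p = 0.0390). Gpnmb, a glycoprotein of lipid-laden and scar macrophages, read 1937, 1421 and 1016 and then 600.2, 539 and 539.8 (-1.31 ± 0.22, adjusted p = 0.0409). Cd68, of the lysosome, read 695, 666 and 559 and then 439, 391 and 419 (-0.60 ± 0.09, adjusted p = 0.0341). All 3 had the stages apart. Tyrobp, a signalling adaptor of myeloid receptors (-0.62), and the lysosomal gene Laptm5 (-0.49) were the other falls. Cd14, the endotoxin co-receptor, rose from 166, 103 and 169.6 to 406, 499 and 556, by 1.65 ± 0.20 (adjusted p = 0.0200), around the control level of 389.9 ± 62.7 (SD, n = 3). Clec4f, a receptor found on Kupffer cells, overlapped between the stages at 1640.2, 1946 and 1866 and 1892, 1789 and 1915 (0.04 ± 0.08, adjusted p = 0.835). The macrophage list had 1, 1 and 1 called higher and 2, 3 and 7 lower without hepatitis replicate 1, 2 or 3, and 1 higher and 0 to 5 lower over the other fits. On the 9 arrays without HCC 1 macrophage marker was called lower. The control arrays that join that fit varied in this list, at 8.08, 7.94 and 9.03.

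Markers of other cell types seldom passed. Ifi30, a thiol reductase of antigen presentation, was the single call of 10 MHC class II genes, from 1926, 1749 and 1636 to 1226, 1136 and 1201 (-0.57 ± 0.07, adjusted p = 0.0231). Some mast cell genes had large differences without a call. Mcpt1, a mast cell protease, read 73.7, 52.01 and 27.98 and then 233, 141 and 146 (1.52 ± 0.30, adjusted p = 0.0550), and Cpa3, the carboxypeptidase of these cells, read 50.4, 57.1 and 25.1 and then 166, 90.1 and 96.3 (1.15 ± 0.29, adjusted p = 0.0919). The stages did not overlap in either gene. Blk, a B cell kinase, fell by 0.32 ± 0.06 (adjusted p = 0.0455), and F8, the clotting factor made by sinusoidal endothelium, by 0.27 ± 0.05 (adjusted p = 0.0430). Neutrophil markers had 0 of 14 called in limma, with 5 at an unadjusted p under 0.05, beside 20.5% of all genes. S100a8, a calprotectin subunit, overlapped at 519, 325 and 450.2 and 151, 341 and 126. Mast cell genes had 1, 0 and 0 called higher and 0 lower without hepatitis replicate 1, 2 or 3, and 0 to 2 higher and 0 lower over the other fits. Neutrophil markers had 0, 1 and 0 higher and 0 lower without those arrays, and 0 to 2 and 0 over the other fits. B and plasma cell genes had 0 higher and 0 lower without those arrays, and 0 and 0 to 1 over the other fits, and sinusoidal endothelium 0 higher and 0, 0 and 1 lower without those arrays, and 0 and 0 to 2 over the other fits. MHC class II genes had 0 higher and 1, 1 and 1 lower without those arrays, and 0 and 0 to 1 over the other fits. The other 4 probe sets of F8 include 3 dim ones of opposite sign, and the mean of its probe sets was not past the threshold (adjusted p = 0.449). The erythroid list had 0 higher and 1, 1 and 0 lower without those arrays, and 0 and 0 to 1 over the other fits. Erythroid genes had 0 of 11 called in limma and 2 at an unadjusted p under 0.05, beside 20.5% of all genes.

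Matrix genes of fibrosis gave no call. Of 46 extracellular matrix genes 0 were called in limma in either direction, where the share over all genes was 3.22%. An unadjusted p under 0.05 was found for 8, beside 20.5% of all genes, and the median was -0.07. With so few calls among all genes, a list of this size without a call says little about fibrosis. Col1a1, the main fibrillar collagen chain, read 318, 122 and 129 at hepatitis and 136, 136 and 181 at cirrhosis, so hepatitis replicate 1 was the highest of the 6, and the difference was -0.18 ± 0.35 (adjusted p = 0.839). Acta2, the smooth muscle actin of activated stellate cells, was dim at 38.8, 29.7 and 38.5 and 26.2, 23.4 and 29.7 (-0.28 ± 0.09, adjusted p = 0.167). Lox, which cross-links collagen, read 177, 49.5 and 72.9 and then 249.5, 149.8 and 212 (1.05 ± 0.41, adjusted p = 0.221) and overlapped through hepatitis replicate 1. Fn1 (fibronectin) had the smallest adjusted p of the list, 0.0511, at -0.29 ± 0.05. Matrix genes had 5, 0 and 0 called higher and 1, 2 and 0 lower without hepatitis replicate 1, 2 or 3, and 0 to 1 higher and 0 to 1 lower over the other fits. Of 26 stellate cell genes only Reln, a glycoprotein of quiescent stellate cells, was called, from 459, 382 and 476 to 301, 241 and 238 (-0.72 ± 0.12, adjusted p = 0.0392). Stellate cell genes had 0 called higher and 0, 2 and 0 lower without hepatitis replicate 1, 2 or 3, and 0 higher and 0 to 1 lower over the other fits.

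In the TGF beta system, Id1, a target of bone morphogenetic protein signalling, fell from 263, 287 and 284 to 115, 102 and 86.1, by 1.33 ± 0.10 (adjusted p = 0.00874). Bmp4, a ligand of that pathway, rose from 25.4, 23.8 and 20.1 to 36.6, 37.9 and 39.5, by 0.47 ± 0.07 (adjusted p = 0.0279). These were the calls among 32 genes, and both had the stages apart. Among 29 matrix proteases and inhibitors, Adam8 and Mmp19 (-0.66) were called lower and the aggrecanase gene Adamts5 higher (0.32), the latter at intensities of 24.2, 26.8 and 22.9 at the cirrhosis stage, close to the dim end. The TGF beta system had 1, 2 and 1 called higher and 1, 1 and 2 lower without hepatitis replicate 1, 2 or 3, and 0 to 3 higher and 0 to 1 lower over the other fits. Matrix proteases had 1, 1 and 0 called higher and 2, 1 and 1 lower without hepatitis replicate 1, 2 or 3, and 0 to 2 higher and 1 to 3 lower over the other fits.

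Biliary genes had 0 of 17 called in limma, with 2 at an unadjusted p under 0.05, beside 20.5% of all genes, and a median of 0.01. Krt19, a keratin of bile duct cells, read 226, 63.3 and 56.1 at hepatitis and 95.6, 135 and 141 at cirrhosis, where hepatitis replicate 1 lay above and the other two below all cirrhosis arrays (0.31 ± 0.47, adjusted p = 0.785). Epcam, an adhesion protein of biliary and progenitor cells, had the same order of arrays at 589, 228 and 207 and 411, 462 and 441 (0.50 ± 0.38, adjusted p = 0.526). Biliary genes had 4, 0 and 1 called higher and 0 lower without hepatitis replicate 1, 2 or 3, and 0 to 1 higher and 0 lower over the other fits. Cell proliferation genes all had a negative difference, 42 of 42, with a median of -0.42, and 1 was called. That gene, Tyms, the enzyme that makes thymidylate, read 111, 96.9 and 70.7 and then 35.1, 31.02 and 42.4 (-1.05 ± 0.16, adjusted p = 0.0321). Mki67, the marker of cycling cells, read 143, 53.1 and 45.3 and then 30.9, 44.96 and 41.5, and hepatitis replicate 1 stood above all the others (-0.68 ± 0.36, adjusted p = 0.363). Proliferation genes had 0 called higher and 1, 1 and 4 lower without hepatitis replicate 1, 2 or 3, and 0 higher and 0 to 2 lower over the other fits.

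**Figure D4:**
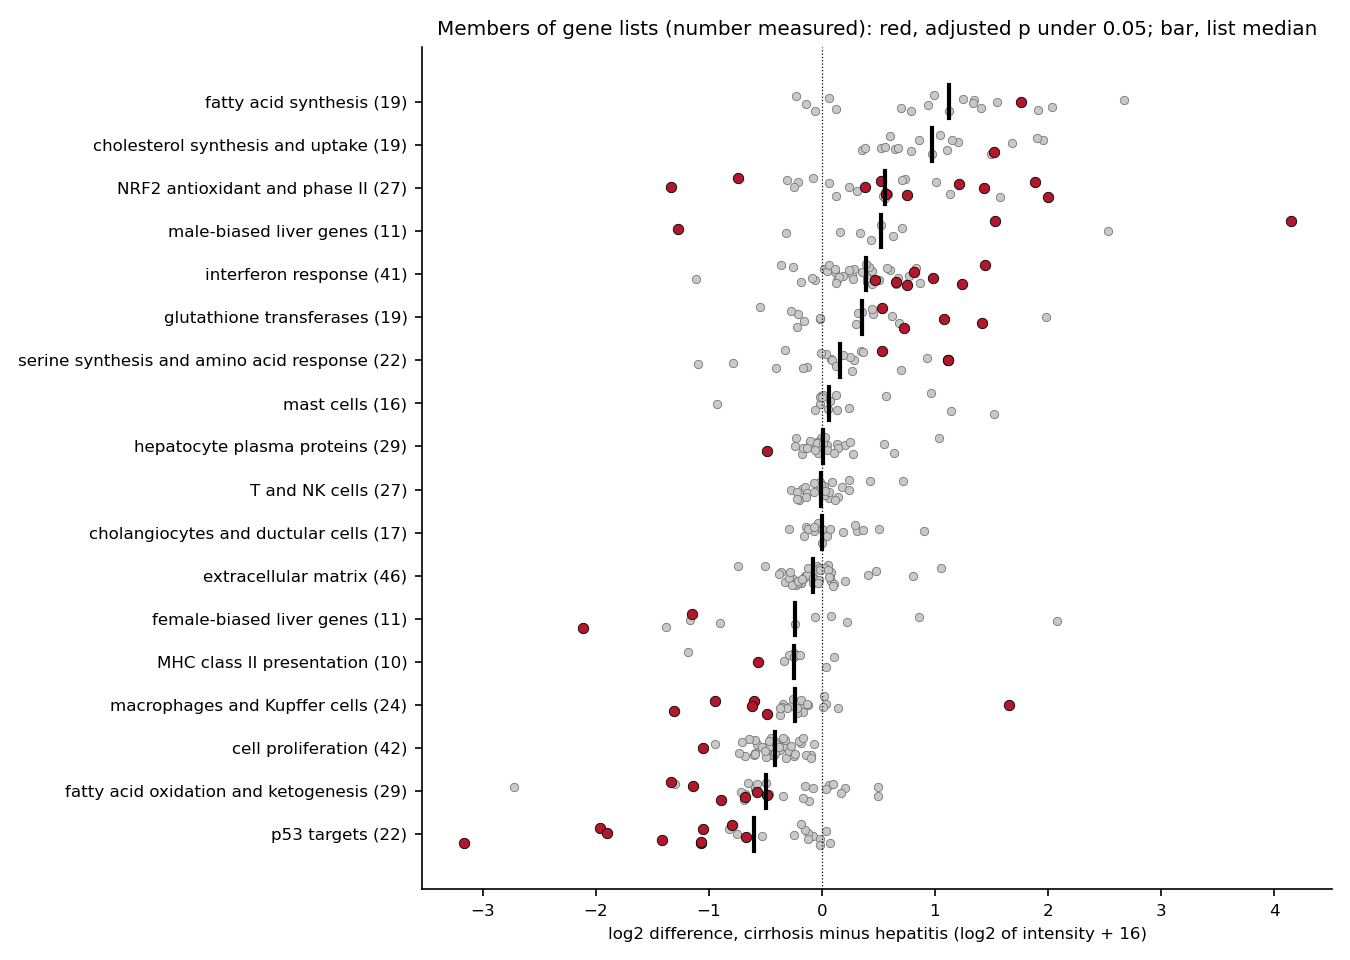
Each point is 1 measured gene of a list, placed by its log2 difference (cirrhosis minus hepatitis); rows are lists with the number of genes measured. Red points are called genes, grey points are not, and black bars are list medians, from -0.60 for p53 targets to 1.12 for fatty acid synthesis.

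Markers of fetal liver and of tumour gave no call. Of 24 such genes 0 were called in limma and 6 had an unadjusted p under 0.05, beside 20.5% of all genes (median 0.08). Afp (alpha-fetoprotein) read 212, 257 and 175 and then 199, 250.2 and 198 (0.01 ± 0.15, adjusted p = 0.979), against 5625 ± 4496 (SD, n = 3) in HCC. Gpc3, a proteoglycan of fetal and malignant hepatocytes, read 73.4, 39.1 and 44.8 and then 53.3, 59.7 and 55.5 (0.11 ± 0.18, adjusted p = 0.805). Ggt1, a gamma-glutamyl transferase of preneoplastic foci, read 98.7, 39.7 and 42.4 and then 115, 176 and 108 (1.02 ± 0.32, adjusted p = 0.142). These markers had 4, 0 and 0 called higher and 0, 1 and 0 lower without hepatitis replicate 1, 2 or 3, and 0 to 1 higher and 0 lower over the other fits. Afp and Gpc3 overlapped, while in Ggt1 all cirrhosis arrays were above the hepatitis arrays.

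Genes of the mature hepatocyte changed in single members. Cebpa, a transcription factor of hepatocyte identity, was the call among 16 such factors, from 208, 341 and 317 to 602, 599 and 542 (1.00 ± 0.18, adjusted p = 0.0465), with control liver at 937 ± 194 (SD, n = 3). Apoa1, the apolipoprotein of high-density lipoprotein, was the call among 29 plasma proteins, from 7702, 7719.8 and 7824 to 5664, 5599 and 5341 (-0.48 ± 0.05, adjusted p = 0.0121). Hnf4a, the central factor of hepatocyte identity, overlapped at 1558, 1855 and 1947 and 1911, 2065 and 2302 (0.23 ± 0.11, adjusted p = 0.307). Its dimmer probe sets, tested alone in limma, were higher on every cirrhosis array. They were not past the threshold either (0.91, adjusted p = 0.0963, and 0.53, adjusted p = 0.156). Among 25 drug-metabolising P450 and oxidase genes 0 were called in limma and 10 had an unadjusted p under 0.05, beside 20.5% of all genes. Their median was 0.08, with 15 positive and 10 negative differences from -1.61 to 1.51. At least 2-fold higher were 4 and at least 2-fold lower 2. Cyp2t1 had the smallest adjusted p (0.0562), at 49.9, 89.8 and 72.6 against 132, 134 and 147 (0.85 ± 0.17). Cyp1a2, of caffeine and arylamine metabolism, read 496, 1590.2 and 1118 and then 2261, 1808 and 2181 (1.10 ± 0.40, adjusted p = 0.200). In amino acid breakdown, Kynu, of tryptophan degradation, read 559, 629.6 and 721 and then 1279, 1244 and 1170.3 (0.94 ± 0.10, adjusted p = 0.0141), and Otc, of the urea cycle, rose by 0.46 ± 0.08 (adjusted p = 0.0481). They were called among 35 genes whose median was -0.31, opposite in sign to both. The amino acid list had 2, 2 and 2 called higher and 1, 8 and 0 lower without hepatitis replicate 1, 2 or 3, and 0 to 2 higher and 0 lower over the other fits. P450 and oxidase genes had 3, 3 and 0 called higher and 0 lower without hepatitis replicate 1, 2 or 3, and 0 to 3 higher and 0 lower over the other fits. Liver transcription factors had 1, 1 and 0 called higher and 0, 0 and 1 lower without hepatitis replicate 1, 2 or 3, and 0 to 2 higher and 0 to 1 lower over the other fits. Plasma proteins had 0 called higher and 1, 1 and 1 lower without hepatitis replicate 1, 2 or 3, and 0 higher and 0 to 2 lower over the other fits. Aldh1l1, a folate enzyme chosen after its values were seen, was even at both stages, with 1448, 1555 and 1609 against 3068, 3241 and 3426 (1.07 ± 0.07, adjusted p = 0.00831).

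Serine synthesis and amino acid response genes had 3 of 22 called higher and 0 lower (median 0.16). Differences ran from -1.09 to 1.12, 15 positive and 7 negative, with 2 genes at least 2-fold higher and 1 at least 2-fold lower. Phgdh, the first enzyme of serine synthesis, read 39.2, 24.03 and 24.5 and then 74.1, 77.1 and 93.1 (1.12 ± 0.15, adjusted p = 0.0236), but both stages were far under the control level of 752 ± 63.2 (SD, n = 3). Slc6a9, a glycine transporter, read 158, 149.5 and 123 and then 323, 335 and 326 (1.11 ± 0.09, adjusted p = 0.00926). Atf4, the transcription factor of this response, rose by 0.53 ± 0.09 (adjusted p = 0.0354). Asns, the asparagine synthetase, overlapped at 56.7, 38.9 and 40.98 and 52.4, 70.8 and 62.8 (0.35 ± 0.14, adjusted p = 0.228) and was also far under the control level of 697 ± 59.9. The binding element of Atf4, searched as TGATGNAAN on both strands, was in 4 of 20 list promoters (20.0%), in 3.8% of all promoters, in 2.21% of the tested genes with an entry and in 0 of the 3 called genes. The serine list had 4, 3 and 3 called higher and 0, 1 and 0 lower without hepatitis replicate 1, 2 or 3, and 0 to 4 higher and 0 lower over the other fits.

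Bile acid genes had 2 of 20 called higher. They were the canalicular exporters Abcc2, from 934, 874 and 745 to 1335, 1179 and 1221 (0.54 ± 0.10, adjusted p = 0.0465), and Abcb11, the bile salt pump, from 824, 732 and 757 to 1024, 1051 and 997 (0.40 ± 0.06, adjusted p = 0.0322). Both were modest and without overlap. Cyp7a1, the first enzyme of bile acid synthesis, overlapped at 971, 1410.3 and 1774 and 1446, 642 and 823 (-0.55 ± 0.34, adjusted p = 0.443). Bile acid genes had 2, 2 and 1 called higher and 0 lower without hepatitis replicate 1, 2 or 3, and 0 to 2 higher and 0 lower over the other fits.

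Clock genes moved in opposite directions. Npas2, a partner of Bmal1 in the activating arm, read 29.6, 17.4 and 15.8 and then 87.4, 116 and 122 (1.76 ± 0.17, adjusted p = 0.0121). Per2 and Cry1, repressors of that arm, fell from 260.4, 325 and 230.2 to 114, 134 and 114 (-1.07 ± 0.13, adjusted p = 0.0200) and from 96.8, 126 and 128 to 44.7, 53.7 and 41.7 (-1.08 ± 0.12, adjusted p = 0.0165). The Per2 values are those of the brighter of its 2 probe sets. The other, also above the dim range, overlapped at 90.8, 111 and 95.95 and 107, 93.2 and 109 (0.05, adjusted p = 0.843 tested alone), and the mean of both gave -0.51 (adjusted p = 0.0473). The other members of the 17 clock genes measured did not pass. Such genes cycle daily, and the hour of sacrifice is unknown here, so its part in these differences was not tested. Clock genes had 1, 1 and 1 called higher and 3, 2 and 2 lower without hepatitis replicate 1, 2 or 3, and 0 to 1 higher and 1 to 3 lower over the other fits.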

How the data were processed

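RNA on 6 rat liver arrays, 3 labelled as the hepatitis and 3 as the cirrhosis stage, was compared, and the other 6 arrays of the 12 give levels or enter alternatives. What the authors deposited is a linear intensity for each probe set on each array. Per the submitters' processing notes MAS5 and RMA were named. Which of them made the values, in what order and with which version, is not stated there, so the part of background handling in dim probe sets is unknown. Arrays count no molecules, and precision is limited by their number. Of the 12 columns 0 were left out.

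Of 31099 probe sets 20826 had 1 gene, 436 several, 9780 none and 57 were array controls. Names came from the platform's annotation, with 9 symbols updated from RefSeq (GRCr8) and 5 not found. A gene (14213 in all, 4526 with several probe sets) was represented by its brightest probe set, judged by the mean of all 12 arrays. limma 3.58.1 in R 4.3.3 (lmFit, eBayes, prior degrees of freedom 2.14) was fitted to log2(intensity + 16) of the 6 arrays, since the HCC arrays spread more, with a median SD of 0.207 (log2) against 0.104 at hepatitis and 0.0724 at cirrhosis. Tests were 2-sided, 1 contrast was tested, and p-values were adjusted by Benjamini-Hochberg over all genes. The fitting code was tested on simulated data. Tables were handled in Python 3.11.15 with pandas 2.3.3 and drawn with matplotlib 3.10.9.

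Gene lists are counted, not tested as sets. The comparison and lists were chosen with earlier results of these data known. Genes were named by rule: the 12 largest rises and 12 largest falls among called genes with the stages apart, leaving out loci without a name and ambiguous probe sets, then from each list at most 5 called members (or, with none, the member of smallest adjusted p), and a set of stage and cell markers, whatever their test. Members beyond this rule (Acaa2, Acadm, Acot1, Aen, Aldh1a1, Aldh1l1, Bbc3, Bst2, Clec4f, Cpa3, Cux2, Cyp1a2, Cyp2c12, Ech1, Epcam, Gbp4, Gdf15, Ghr, Gsr, Gtse1, Hnf4a, Idi1, Igf1, Insig2, Isg15, Keap1, Laptm5, Lig4, Lox, Nfe2l2, Nqo1, Pgd, Plk2, Prlr, S100a8, Scd, Sesn2, Sqle, Srebf1, Srebf2, Txnrd1 and Zmat3) were chosen after their values were seen. Promoter sequences are from RefSeq's GRCr8 table. Alternatives were the 9 arrays without HCC, all 12 arrays, added constants of 1 and 64, the dimmest 30% of genes left out, the mean of a gene's probe sets, each probe set alone, quantile normalization, trend and robust eBayes, the replicate number as a block and each array left out.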

Additional observations from a re-analysis of the deposited data

How the results depend on the processing

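The count of 457 called genes (208 higher, 249 lower, 95 at 2-fold or more) was 834 (413 and 421) on the 9 arrays without HCC and 136 (56 and 80; 58 at 2-fold) on all 12 arrays. With the replicate number as a block 2 genes were called (1 higher, 1 lower; 2 at 2-fold). Arrays of the same number did not deviate together (correlations of -0.0639, -0.0608 and -0.0715), so the number is no pairing in these data. With 1 array left out the counts ran from 2 to 926 in all, 1 to 438 higher, 1 to 488 lower and 2 to 202 at 2-fold. An added constant of 1 gave 162 and of 64 gave 41 genes at 2-fold. The other alternatives gave counts within 1.5 times of these. Of the 457 called genes 389 were also called on 9 arrays and 112 on 12. Of the 149 genes named 95 were past the threshold, and these 95 kept their direction in every alternative with 1 value per gene and in the probe set used when it was tested alone. Other probe sets of 6 of them had the opposite sign, dim ones for Lama5, Fas, Eci1 and F8 (mean intensity at most 18.4) and brighter ones for Csf1 and Per2. With each probe set alone 13 of the 95 had none called, and with the mean of a gene's probe sets 9 were not past the threshold (Fasn, Pln, Fas, Cebpa, Blk, F8, Csf1, Laptm5 and Sesn2). On 9 arrays 81 of the 95 were called, the others being Gpnmb, Tyrobp, Cd68, Laptm5, Bcl6, Abcc2, Cxcl9, Oasl, Bst2, Gstm7, Ifi30, Blk, Csf1 and Per2, and on 12 arrays 39 were.

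Limits are the 3 arrays a stage, of which the loss of any 1 of the cirrhosis arrays ended nearly all calls (the cause was not tested), the unknown making of the values, and dim probe sets: 33.85% to 35.75% of values per array lie under the added 16.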

Other observations

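Other gene lists held few called genes. Of 18 iron genes Tfr2, a sensor of transferrin in hepatocytes, was called, reading 1087, 1262 and 1232 at hepatitis and 719.7, 738 and 708 at cirrhosis (-0.71 ± 0.07, adjusted p = 0.0121 in limma). Of 39 cytokines and chemokines Csf1, the growth factor of macrophages, was called at 0.24 ± 0.04 (adjusted p = 0.0440), with 238, 236 and 233 against 285, 281 and 281, and lost its call on the 9 arrays without HCC (adjusted p = 0.0543). Another of its 4 probe sets went the other way, with 59.2, 53.8 and 44.9 against 38.4, 40.7 and 34.2 (-0.35, adjusted p = 0.112 tested alone), and the mean of all 4 gave 0.02 (adjusted p = 0.899), so the rise rests on the probe set used. Iron genes had 0, 2 and 0 called higher and 1, 3 and 2 lower without hepatitis replicate 1, 2 or 3, and 0 to 1 higher and 0 to 4 lower over the other fits. Cytokine genes had 3, 2 and 0 called higher and 0 lower without hepatitis replicate 1, 2 or 3, and 0 to 1 higher and 0 lower over the other fits. Genes of the unfolded protein response (23), immediate early genes (25), acute phase proteins (21), glycolysis (21), gluconeogenesis (13), pericentral and Wnt targets (16) and cytosolic ribosomal proteins (21) had 0 called in limma, with 3, 5, 4, 3, 2, 5 and 5 at an unadjusted p under 0.05 and medians of 0.08, -0.02, -0.07, -0.07, -0.07, 0.02 and -0.07. Over all genes 20.5% had an unadjusted p under 0.05. Glycolysis genes had 0 called higher and 0, 5 and 0 lower without hepatitis replicate 1, 2 or 3, and 0 higher and 0 to 1 lower over the other fits. Acute phase genes had 0, 3 and 0 called higher and 0 lower without hepatitis replicate 1, 2 or 3, and 0 to 2 higher and 0 lower over the other fits. Gluconeogenesis genes had 1, 1 and 1 called higher and 0 lower without hepatitis replicate 1, 2 or 3, and 0 to 1 higher and 0 lower over the other fits. Pericentral genes had 0 higher and 0, 0 and 1 lower without those arrays, and 0 to 1 and 0 over the other fits. Unfolded protein response genes had 0, 1 and 0 higher and 0 lower without those arrays, and 0 and 0 over the other fits, immediate early genes 0 higher and 0 lower without those arrays, and 0 to 1 and 0 over the other fits, and ribosomal proteins 0 higher and 0 lower without those arrays, and 0 and 0 to 1 over the other fits.

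Vascular endothelium (22 genes), skeletal muscle (16) and adipocyte markers (11) also had 0 called in limma, with 3, 2 and 3 at an unadjusted p under 0.05, beside 20.5% of all genes. Of 14 pancreatic acinar genes the carboxypeptidase gene Cpb1 was called, at the dim values of 41.2, 48.9 and 48.03 against 26.03, 30.7 and 31.9 (-0.45 ± 0.08, adjusted p = 0.0440). Myc, a growth-promoting transcription factor, read 134, 99.5 and 128 and then 209, 279 and 177 (0.79 ± 0.18, adjusted p = 0.0732) and was not past the threshold. Acinar genes had 0 called higher and 1, 0 and 0 lower without hepatitis replicate 1, 2 or 3, and 0 higher and 0 to 1 lower over the other fits. Vascular endothelium had 0 higher and 0, 1 and 1 lower without those arrays, and 0 and 0 over the other fits, muscle 0 higher and 0, 1 and 0 lower without those arrays, and 0 and 0 over the other fits, and adipocyte markers 0, 1 and 0 higher and 0, 1 and 0 lower without those arrays, and 0 and 0 over the other fits.

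In the lists without a call, the gene of smallest adjusted p was in no case past the threshold. For the unfolded protein response it was Dnajb9, a chaperone cofactor of the endoplasmic reticulum, at 0.64 (adjusted p = 0.0830). In glycolysis it was Pgk1 at -0.61 (0.0825), of which another probe set, tested alone, was called at -0.44 (adjusted p = 0.0206). It was the glycogen branching enzyme gene Gbe1 at 0.87 (0.0990) in gluconeogenesis and glycogen, and Itih4 at -0.26 (0.0644) in acute phase proteins. For ribosomal proteins it was Rpl19 at -0.38 (0.0740), for pericentral genes the glutamate transporter gene Slc1a2 at 0.59 (0.0524), and for bile duct genes the water channel gene Aqp1 at 0.90 (0.0632). In erythroid genes the transferrin receptor gene Tfrc stood at -0.47 (0.0795), in muscle genes Tnnc2, a troponin gene, at -0.99 (0.147), and in adipocyte genes the lipid droplet gene Cidea at 0.84 (0.0933). For vascular endothelium it was the adhesion gene Esam at -0.35 (0.108), for T and NK cells the granzyme gene Gzmb at 0.24 (0.0851), for neutrophils the defensin gene Np4 at 0.36 (0.0534), and for tumour markers the growth factor gene Mdk at -0.17 (0.108).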
